A study of Mus musculus with 30 samples.

Results

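Accessible chromatin was compared between brain endothelial cells (ECs) taken straight from the adult mouse and brain ECs after 8 days in primary culture. The comparison rests on 8 of the 10 ATAC-seq peak lists of the series, namely every list labelled acute adult brain EC (2 lists) or WT cultured (6 lists), in a series of 24 samples with a processed file that also holds 14 RNA-seq libraries. The members are therefore libraries, chosen by their labels and not by their values. The 2 further peak lists, from cultures with stabilized beta-catenin, were used only to look up regions already classed.

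The acutely isolated ECs came from adult male Tie2-GFP mice, in which a transgene carrying Tek (Tie2) regulatory sequence marks ECs, and were sorted as GFP-positive cells from brain. In its RNA-seq section the paper describes adult brain ECs as joined data sets of cerebrum and cerebellum, the cerebellum set having been published earlier. All 6 cultures were labelled as adult male brain ECs, kept on collagen in EC medium and freed of other cells with puromycin, which ECs survive because they express P-glycoprotein. Cultures R1 and R2 came from C57BL/6J mice by isolation method A, a papain dissociation. Cultures R3 to R6 came from Ctnnb1flex3/+;Tie2-GFP mice that had been given 4HT but carried no Cre, by isolation method B, a Dounce homogenization followed by collagenase and dispase with a higher dose of puromycin. Each culture experiment gave 2 wells (R1 with R2, R3 with R4, R5 with R6), so the 6 lists are 3 experiments, and brains of several mice were pooled. Isolation method and strain cannot be told apart. Method A was a single experiment, so a difference between the methods cannot be told apart from one between experiments. The experiments of method B share method and strain. Acute and cultured cells differ in purification as well as in culture, and p-values over wells measure in part the spread between wells of the same experiment.

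ATAC-seq uses a transposase that inserts adaptors where DNA is not wrapped in tightly packed nucleosomes, so a peak marks a promoter, enhancer or other open site. In brain ECs the blood-brain barrier (BBB) program depends on Wnt ligands from neural cells, which stabilize beta-catenin and let it act through TCF/LEF factors bound to DNA. Cells plated on a stiff surface in serum are known to use other factors, among them AP-1 (dimers of Fos, Jun and Atf proteins) and the TEAD factors that carry YAP and TAZ to DNA. ETS factors such as Erg and Fli1 are used by ECs of all organs.

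The sequences below show what the peaks of either state looked like. Each is 200 bases around the summit of a region, read on the plus strand of GRCm38 (mm10), the build of the peak lists. The first set comes from regions that had a peak in both acute lists and in none of the 6 cultured lists. The capitals mark the TCF/LEF letters CTTTGAT on either strand. The Slco1c1 window lies at the promoter of a thyroxine and organic anion transporter of the BBB, the Slc2a1 window lies upstream of the gene of the glucose transporter Glut1, and the Rnf144b, Dmgdh and Slc2a1 windows were among the 10 acute-only regions of highest −log10 q, the significance that the peak caller gave each peak. The Lef1 window lies within the gene of a TCF/LEF factor that is itself a Wnt target.
Slco1c1 promoter, chr6:141523988-141524187: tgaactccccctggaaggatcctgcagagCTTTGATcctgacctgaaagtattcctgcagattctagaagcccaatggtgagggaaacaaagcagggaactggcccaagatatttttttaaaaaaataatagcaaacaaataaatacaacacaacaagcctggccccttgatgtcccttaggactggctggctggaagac
Slc2a1, upstream, chr4:119044356-119044555: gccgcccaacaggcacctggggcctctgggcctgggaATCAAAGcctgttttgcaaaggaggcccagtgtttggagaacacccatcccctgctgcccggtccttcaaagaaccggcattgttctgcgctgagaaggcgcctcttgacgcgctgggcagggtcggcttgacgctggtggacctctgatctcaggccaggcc
Dmgdh, intron, chr13:93687318-93687517: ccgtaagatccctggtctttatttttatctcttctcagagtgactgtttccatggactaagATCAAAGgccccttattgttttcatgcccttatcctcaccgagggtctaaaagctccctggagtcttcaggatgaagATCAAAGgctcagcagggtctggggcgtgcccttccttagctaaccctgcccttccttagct
Rnf144b, intron, chr13:47243098-47243297: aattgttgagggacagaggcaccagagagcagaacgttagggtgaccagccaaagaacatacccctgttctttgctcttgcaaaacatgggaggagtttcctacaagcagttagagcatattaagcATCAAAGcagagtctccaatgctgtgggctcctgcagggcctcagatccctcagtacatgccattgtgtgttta
Lef1, intron, chr3:131155719-131155918: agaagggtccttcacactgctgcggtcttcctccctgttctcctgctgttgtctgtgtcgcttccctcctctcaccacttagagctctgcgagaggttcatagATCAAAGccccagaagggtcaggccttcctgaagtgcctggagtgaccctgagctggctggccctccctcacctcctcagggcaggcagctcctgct

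The second set comes from regions with a peak in all 6 cultured lists and in neither acute list, where the capitals mark the AP-1 letters TGANTCA, which read the same on both strands, and the TEAD letters CATTCC on either strand. Cav1 encodes the coat protein of caveolae, Abcb1a the efflux pump P-glycoprotein, and Klf4 a factor induced by laminar flow. The Camk2d and B3galt1 windows belong to the 10 culture-only regions of highest −log10 q.
Cav1, intron, chr6:17314855-17315054: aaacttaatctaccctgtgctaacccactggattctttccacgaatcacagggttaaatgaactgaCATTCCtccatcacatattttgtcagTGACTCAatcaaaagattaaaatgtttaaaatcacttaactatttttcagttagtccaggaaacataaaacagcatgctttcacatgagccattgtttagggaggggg
Abcb1a, intron, chr5:8737168-8737367: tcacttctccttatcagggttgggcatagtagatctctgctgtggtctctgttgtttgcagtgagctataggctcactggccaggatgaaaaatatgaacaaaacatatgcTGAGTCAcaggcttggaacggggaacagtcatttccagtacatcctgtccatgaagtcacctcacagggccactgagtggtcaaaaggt
Klf4, upstream, chr4:55541760-55541959: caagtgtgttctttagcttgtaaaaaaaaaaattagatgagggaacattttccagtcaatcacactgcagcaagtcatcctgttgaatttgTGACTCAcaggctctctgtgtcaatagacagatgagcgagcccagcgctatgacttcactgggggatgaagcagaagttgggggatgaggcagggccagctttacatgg
Camk2d, intron, chr3:126831537-126831736: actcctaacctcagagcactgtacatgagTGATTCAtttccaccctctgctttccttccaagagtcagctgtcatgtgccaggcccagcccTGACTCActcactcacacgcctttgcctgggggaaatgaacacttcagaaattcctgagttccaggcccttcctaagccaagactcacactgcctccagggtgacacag
B3galt1, intron, chr2:68222322-68222521: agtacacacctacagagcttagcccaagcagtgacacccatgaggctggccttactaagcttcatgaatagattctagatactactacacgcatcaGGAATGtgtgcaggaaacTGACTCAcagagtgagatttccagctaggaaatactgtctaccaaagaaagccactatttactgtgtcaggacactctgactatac

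A match to such letters is a description of the sequence and does not show that a factor was bound. Among 32851 RefSeq mouse promoters of 300 bases (GRCm38.p6), 3.73% held the TCF/LEF letters, 7.81% the AP-1 letters and 14.7% the TEAD letters.

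The lists differed in length. The acute lists held 37211 and 31601 peaks on the main chromosomes after filtering, and the cultured lists held 50272, 33032, 92516, 98603, 84429 and 92838. The 4 method B lists were the longest and cultured R2 was about as short as the acute lists. A list of peaks grows with sequencing depth and signal. Region counts, list overlaps, library values and gene list counts were therefore taken on the full lists and again on evened lists. Evened lists keep the 31844 peaks of highest −log10 q of each library. This set unlike cutoffs. The lowest −log10 q kept was 6.68 and 2.12 in the acute lists. It was 10.0 and 3.98 in R1 and R2 and 39.6 to 54.5 in R3 to R6. A region can thus lack an evened peak in R3 to R6 and still hold a peak in their full lists. Results by peak strength, distance to a TSS and motif position, among others, come from the full lists only. The number of reads behind each list is not given in the sources used here.

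The 8 full lists merged into 102366 regions held by at least 2 lists. Of these, 3673 regions (3.59% of all) had a peak in both acute lists and in no cultured list and are called acute-only here. A further 10210 (9.97%) had a peak in all 6 cultured lists and in neither acute list and are called culture-only. Peaks in all 8 lists were found at 16918 regions (16.5%), called shared. On the evened lists, which gave 47072 regions, the order of the first 2 classes turned: 7670 regions (16.3%) were acute-only, 6330 (13.4%) were culture-only and 13675 (29.1%) were shared. By these classes the larger number of gained than lost regions was seen only before list length was evened. The classes are not equally strict, since acute-only asks for 2 lists and culture-only for 6. On the evened lists a further 2016 regions had a peak in 5 cultured lists and no acute list. Another 1120 had a peak in both acute lists and in 1 cultured list. These counts are descriptions of presence with no test.

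**Figure D1:**
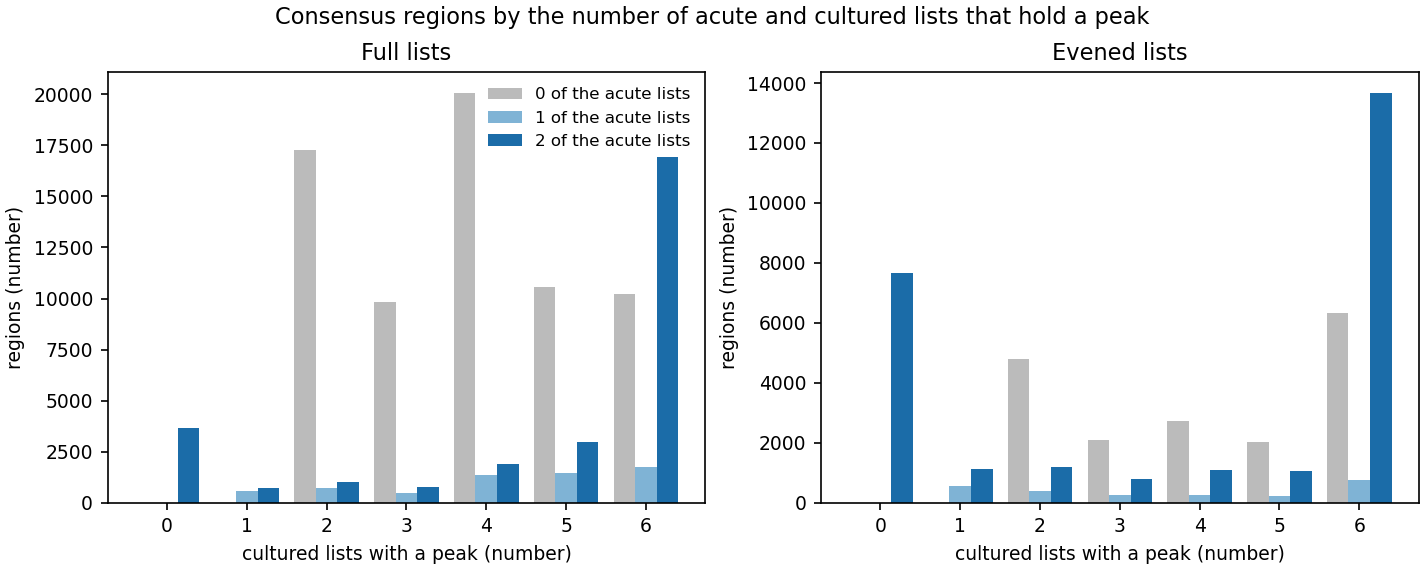
Numbers of consensus regions (vertical axis) by how many cultured lists held a peak (horizontal axis) and how many acute lists did (colour), for full and evened lists. Regions in both acute lists and in no cultured list numbered 3673 in the full and 7670 in the evened lists, and regions in all 6 cultured lists and no acute list numbered 10210 and 6330.

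Seen from the acute side, 28044 regions had a peak in both acute lists, of which 60.3% had a peak in all 6 cultures and 13.1% in none. On the evened lists the corresponding shares of 26642 regions were 51.3% and 28.8%. Seen from the culture side, 28895 regions had a peak in all 6 cultured lists, of which 58.5% were open in both acute lists and 35.3% in neither, and 65.9% and 30.5% of 20759 regions on the evened lists. The count of culture-only regions rested on the shortest cultured list: without cultured R2 it was 20213, and with the 4 method B cultures alone it was 39497. With the 2 method A cultures alone the count of acute-only regions was 7424.

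Loss and gain were much rarer at transcription start sites (TSSs) than elsewhere. Regions of the full lists, whose lengths differ, were ranked by their mean −log10 q in the state where they were open. They were cut into bins of 10%. Among acute regions further than 1 kb from a TSS, 7.06% of the strongest bin and 41.2% of the weakest had no peak in any culture. At TSSs those shares were 0.0% and 7.05%. Cultured regions away from TSSs lacked an acute peak in 39.8% of the strongest bin and 59.6% of the weakest, so strong as well as weak distal sites of the cultures were absent from the acute lists. At TSSs the shares were 0.353% and 25.7%.

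**Figure D2:**
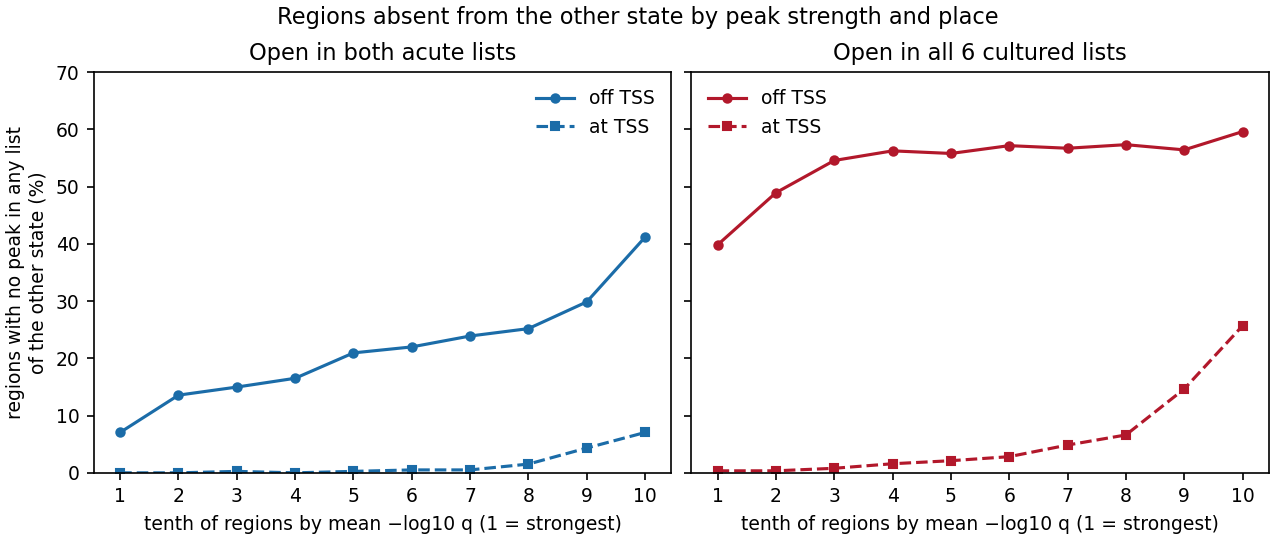
Share of regions with no peak in any list of the other state (%, vertical axis) by bins of 10% of mean −log10 q (horizontal axis, 1 is strongest), at and away from TSSs, for regions open in both acute lists and in all 6 cultured lists. Away from TSSs the acute curve runs from 7.06% to 41.2% and the culture curve from 39.8% to 59.6%, while both lie at or under 0.353% in the strongest bin at TSSs.

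The classes accordingly differed in place. Of acute-only regions 4.63% lay within 1 kb of a TSS, 37.8% in introns and 54.7% between genes, with a median distance of 28528 bases from summit to TSS. Of culture-only regions 6.64% lay at a TSS, 47.0% in introns and 44.1% between genes, with a median distance of 26864 bases. Shared regions lay at TSSs in 61.2% of cases, at a median distance of 168 bases, and their windows had a mean GC content of 61.2%, beside 49.3% and 49.4% in the acute-only and culture-only classes. The peaks of acute-only regions were modest, with median fold enrichment (peak height over the caller's local background) of 5.16 and 4.29 in the acute libraries. Culture-only regions had medians of 7.71, 6.13, 11.5, 12.5, 13.4 and 14.8 in cultures R1 to R6, and shared regions had 11.0 and 10.2 in the acute libraries.

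Peaks on chromosome Y moved with the groups although every library was labelled male. The acute lists held 290 and 361 peaks there (0.779% and 1.14% of peaks) and the cultured lists 15 to 57 (0.0291% to 0.0578%). Accordingly 197 of the 3673 acute-only regions and 1 of the 10210 culture-only regions lay on Y. Repeat-masked sequence held the summit of 22.8% of acute-only and 8.70% of culture-only regions. Without chromosomes X and Y the counts were 3277 acute-only and 10012 culture-only. What sets the difference on Y was not tested.

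The lists were more alike within a state than between states. On evened lists, the mean share of peaks that touched a peak of the other list was 86.2% for the acute pair and 84.8% to 93.3% for the 3 pairs of wells from the same culture experiment. Between different culture experiments, which include method A against method B, it was 76.6% to 83.6% over 12 pairs. Between acute and cultured libraries it was 51.3% to 57.7% over 12 pairs. The 2 lists from beta-catenin stabilized cultures, which had not been used to form the classes, held a peak in both at 99.1% of culture-only regions. Of acute-only regions, 3.05% had a peak in either list. These cultures were also made by method B, so they share purification and list length with R3 to R6.

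Peak width and enrichment did not separate the states in a way that held across list lengths. On the evened lists median widths were 538 and 481 bases in the acute libraries and 470, 363, 681, 696, 597 and 616 bases in cultures R1 to R6. Cultures of method A were narrower and those of method B wider than the acute mean. The means were 510 ± 40.3 bases (SD, n = 2) and 571 ± 130 bases (SD, n = 6; exact permutation p = 0.571, two-sided). On the full lists the acute peaks were wider, 474 and 482 bases against 354 to 383 bases. Evened median fold enrichment was 7.34 and 6.25 in the acute libraries and 8.44, 6.78, 12.5, 13.2, 14.4 and 15.6 in the cultures. The groups overlapped at cultured R2, with means of 6.79 ± 0.769 (SD, n = 2) and 11.8 ± 3.48 (SD, n = 6; exact permutation p = 0.143, two-sided). With 2 against 6 libraries the smallest two-sided p an exact permutation test can give is 0.0714, so no comparison of single library values could pass 0.05.

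Of the 10 motifs searched, AP-1 showed the widest gap between the states. Of the evened peaks, 6.70% and 7.12% of windows held TGANTCA in the acute libraries, against 25.2%, 23.1%, 26.1%, 26.8%, 30.3% and 31.4% in cultures R1 to R6. Every culture lay above both acute libraries, whichever isolation method was used. The means were 6.91% ± 0.292 (SD, n = 2) and 27.1% ± 3.14 (SD, n = 6), a ratio of 3.93 (exact permutation p = 0.0714, two-sided, 0.102 after Benjamini-Hochberg adjustment over 10 motifs). TEAD letters were held by 9.92% and 9.93% of acute peaks and by 15.0%, 14.1%, 16.3%, 16.4%, 17.99% and 18.4% of cultured peaks, again without overlap and 1.65-fold higher in culture (exact permutation p = 0.0714, adjusted 0.102).

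TCF/LEF letters went the other way. They were held by 4.24% and 4.16% of acute peaks and by 1.89%, 1.89%, 2.02%, 2.14%, 2.09% and 2.15% of cultured peaks. The acute share was 2.07-fold the cultured share, with means of 4.20% ± 0.0599 (SD, n = 2) and 2.03% ± 0.119 (SD, n = 6; exact permutation p = 0.0714, adjusted 0.102). Cultures R3 to R6, which carried the unrecombined Ctnnb1 allele, and the C57BL/6J cultures R1 and R2 all lay between 1.89% and 2.15%.

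KLF letters (CCACNCCC), which Klf2 and Klf4 can bind, were held by 13.3% and 14.0% of acute and by 10.1% to 10.9% of cultured peaks. The GC-rich SP letters (CCCCGCCC) were held by 14.7% and 15.4% against 11.5% to 12.9%, and the ZIC letters (CCTGCTG) by 12.0% and 11.3% against 9.22% to 10.8%. CTCF letters (CTAGNNGGC) were held by 4.52% and 3.88% against 3.44% to 3.82%. In these 4 motifs too the acute and cultured libraries did not overlap (exact permutation p = 0.0714 for each, adjusted 0.102). The direction for CTCF turned on the full lists. ETS letters (CNGGAAG), the most common of the 10 motifs, were held by 32.9% and 32.4% of acute and 32.0% to 33.4% of cultured peaks, a difference in means of 0.0255 percentage points (exact permutation p = 0.929). SOX letters (CATTGTT) were at 4.98% and 4.74% against 4.09% to 5.50% (exact permutation p = 1.0), and FOX letters (TGTTTAC) at 4.06% and 3.65% against 3.20% to 3.87% (exact permutation p = 0.214). For ETS and SOX the sign of the difference changed between settings.

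**Figure D3:**
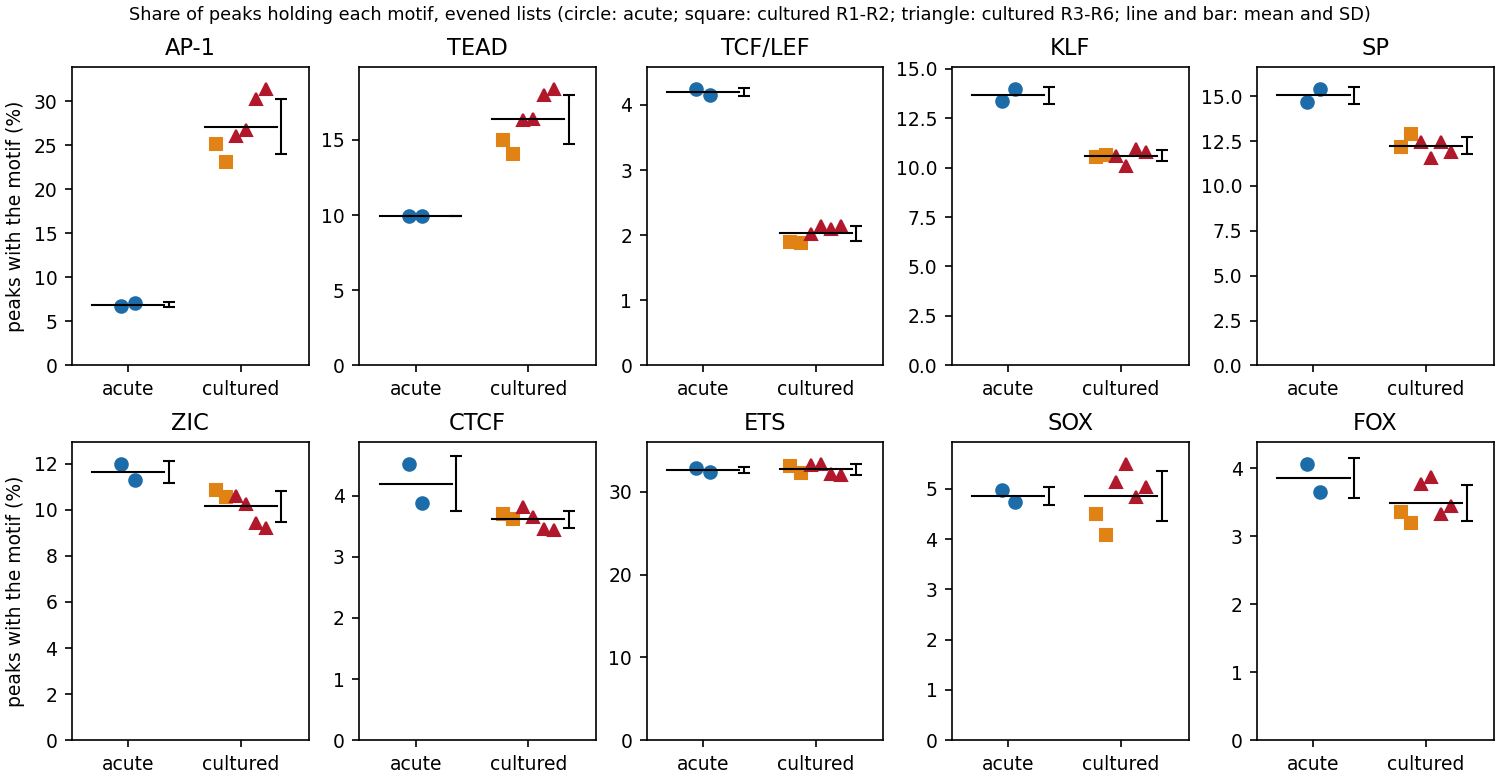
Share of evened peaks whose 200 bases around the summit held each motif (%, vertical axis) in each library, with circles for acute, squares for cultures R1 and R2, triangles for cultures R3 to R6, and lines and bars for means and SDs. AP-1 runs from 6.70% and 7.12% in the acute libraries to 23.1% to 31.4% in culture, TCF/LEF from 4.24% and 4.16% to 1.89% to 2.15%, and ETS overlaps between the states.

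The same differences were seen away from promoters. Beyond 1 kb from a TSS the AP-1 share was 9.12% and 9.94% in the acute libraries and 34.6% to 43.9% in culture. The TCF/LEF share was 6.03% and 6.05% in the acute libraries and 2.39% to 2.64% in culture. The share of evened peaks at TSSs was itself 38.2% and 40.1% in the acute libraries against 34.4% to 39.8% in culture (difference in means −2.97 percentage points, exact permutation p = 0.143). That difference was −13.0 points on the full lists, where cultures lay between 18.7% and 39.3%, and −0.82 with method A alone.

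By class of region, AP-1 letters stood in 49.2% of culture-only windows, 10.9% of shared windows and 3.65% of acute-only windows, beside 26.0% of all 102366 regions. TCF/LEF letters stood in 11.6% of acute-only, 2.23% of culture-only and 1.82% of shared windows, beside 2.97% of all. TEAD letters stood in 22.8% of culture-only, 10.0% of acute-only and 10.3% of shared windows, beside 17.3% of all. KLF letters stood in 5.06%, 11.2% and 15.1%, beside 8.21% of all, and were thus most frequent in shared windows. ETS letters stood in 31.6%, 28.1% and 34.9%, beside 29.5% of all. Classes formed from the evened lists gave 54.9% and 3.94% for AP-1 and 2.29% and 8.96% for TCF/LEF in culture-only and acute-only regions. Of the culture-only regions of the full lists 62.0% held AP-1 or TEAD letters and 10.0% held both. TEAD letters were no more frequent among culture-only windows with AP-1 letters (20.3%) than among those without (25.1%).

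In classes from the full lists the matches lay at the summits. In culture-only regions 10.4% had an AP-1 match in the 20 bases just left of the summit and 9.94% in the 20 bases just right of it, against 0.695% in the bin starting 300 bases to the left. In acute-only regions the 2 central bins were at 0.436% and 0.408%. TCF/LEF matches in acute-only regions were at 1.93% and 1.55% in the central bins. They were at 0.272% in the bin starting 300 bases to the left and 0.599% in the bin ending 300 bases to the right. In culture-only regions they were at 0.235% and 0.196% in the centre. TEAD matches of culture-only regions were at 3.37% and 3.36% in the centre and at 1.19% in the bin starting 300 bases to the left.

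**Figure D4:**
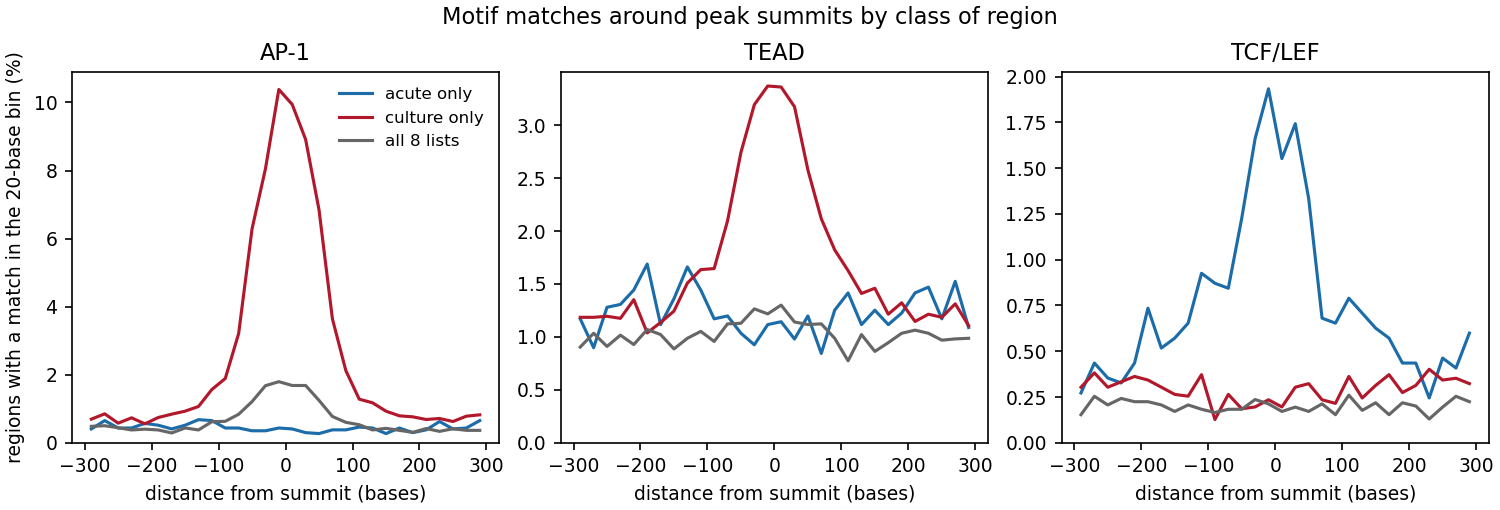
Share of regions with a match in each 20-base bin (%, vertical axis) by distance from the summit (bases, horizontal axis) for acute-only, culture-only and shared regions. AP-1 matches of culture-only regions reach 10.4% beside the summit, TCF/LEF matches of acute-only regions 1.93%, and acute-only AP-1 matches stay near 0.436% there.

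On the full lists both patterns were graded. Among regions open in neither acute list, the AP-1 share was 27.1%, 28.4%, 33.3%, 38.0% and 49.2% for regions held by 2, 3, 4, 5 and 6 cultured lists. Among regions open in both acute lists, the TCF/LEF share was 11.6%, 7.18%, 7.18%, 6.35%, 5.56%, 3.95% and 1.82% for regions held by 0 to 6 cultured lists, and over the same steps the share at TSSs went from 4.63% to 61.2%. By strength, the TCF/LEF share was 17.6% in the strongest 20% of acute-only regions and 7.90% in the weakest. The AP-1 share of culture-only regions was 59.1% in the strongest and 35.1% in the weakest 20%, and the TEAD share 29.7% and 16.5%.

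The 10 acute-only regions of highest −log10 q, chosen by that value and given as a description, were all away from TSSs. They lay nearest to Slc6a6 (a taurine transporter), Foxq1 (a forkhead factor of brain ECs), Glcci1, Rnf144b, Mast4, Hus1b, Slc2a1, Sh2d4a, Dmgdh and Mbd2. Their mean −log10 q ran from 250.4 to 362, and 3 of the 10 held TCF/LEF letters and none AP-1 letters. The Foxq1 region, 186126 bases upstream, had fold enrichment of 17.9 and 16.2, and the Slc2a1 region, 64255 bases upstream, had 9.42 and 9.87. Of the 10 culture-only regions of highest −log10 q, whose mean −log10 q ran from 415 to 598, 9 lay nearest to Camk2d (a calcium-dependent kinase), Bnc2, Man1a, Gm10181, B3galt1, Col19a1, Hpf1, Macrod2 and Pth. Of the 10, 8 held AP-1 letters and none TCF/LEF letters. At Camk2d the fold enrichment was 21.3, 17.7, 21.4, 22.1, 21.3 and 22.3 in cultures R1 to R6.

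Regions open in all 8 lists allowed a comparison of height. limma on log2 fold enrichment, each library centred on its median, called 1500 of the 16918 shared regions (8.87%) higher and 302 (1.79%) lower in culture at an adjusted p under 0.05 and a difference over 1 on the log2 scale. Of all calls 83.2% were higher, but that split moved with scaling: it was 71.6% after quantile normalization and 92.5% with no centring, where the median difference over regions was 0.10 in place of −0.07. It was 59.9% on log2 of −log10 q and 58.4% with method B alone. With absent peaks set to the 1st percentile over all 102366 regions it was 33.2%, so there most calls were lower. Without cultured R2 the number lower was 721 of 19667. Of regions higher in culture 35.3% held AP-1 letters and 21.1% lay at a TSS. Of those lower in culture 6.29% held TCF/LEF letters and 41.7% lay at a TSS. Over all shared regions AP-1 letters were at 10.9%, TCF/LEF letters at 1.82% and TSSs at 61.2%.

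The largest rise was at the promoter of Fggy, which encodes a carbohydrate kinase. Its fold enrichment was 3.53 and 4.20 in the acute libraries and 25.4, 23.2, 27.4, 27.96, 27.4 and 30.2 in cultures R1 to R6, with a log2 difference of 2.63 (SE 0.16, limma adjusted p = 9.05e-07). The others of the 10 largest lay at or nearest to Msh3, Rabgap1l, Adam3, Gja1 (the gap junction protein connexin 43), Igfbp7, Tas2r143, Gtdc1, Dip2c and Nr5a2, with log2 differences from 2.28 to 2.53. Among regions that fell, the Ptprb promoter stood out as an EC gene: Ptprb encodes VE-PTP, the phosphatase that acts on Tie2 and VE-cadherin. Its fold enrichment was 13.5 and 11.8 in the acute libraries and 3.62, 5.46, 3.79, 3.79, 2.48 and 2.39 in culture (log2 difference −2.04, SE 0.44, limma adjusted p = 0.0035). A region 10856 bases upstream of Cd34, which encodes a sialomucin of ECs, went from 19.7 and 18.8 to between 5.30 and 7.21 (log2 difference −1.85, limma adjusted p = 0.00017). The other 8 of the 10 largest falls lay at or nearest to Nebl, Utrn, St3gal6, Trib2, Bzw2, Tpm1, Haao and Urm1, with log2 differences from −2.22 to −1.79. In both sets of 10, which were chosen for their size, the acute and cultured values did not overlap.

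RNA-seq of the same 2 states, from other libraries of the series (2 acute, 6 cultured), is set beside the regions as TPM, an abundance scaled by transcript length and library size, summed over a gene's transcripts. These values are given as a description. Bulk values cannot tell fewer cells of a type from less RNA per cell.

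At Slco1c1 both the promoter peak and the RNA were lower in culture. The promoter region, 298 bases upstream of the start site, had fold enrichment of 13.8 and 13.4 in the acute libraries and no peak in any culture, and RNA was 1475 and 1993 TPM against 0.559 to 9.99 TPM. An intronic region 19039 bases from the start site was open in culture only, at 3.46 to 5.18. A loss of the TSS peak was also seen at Slco1a4, a bile acid and anion transporter, and Slc22a8, an organic anion transporter, whose TSSs had a peak in both acute lists and in no cultured list. Slco1a4 held 6 acute-only regions and 1 culture-only region, and its RNA averaged 744 TPM in acute and 34.8 TPM in cultured cells.

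At Mfsd2a, Kdr and Slc2a1 the promoter kept a peak in all 8 lists while RNA was lower in every culture than in both acute libraries. The promoter of Mfsd2a, a lipid transporter that restrains transcytosis, had fold enrichment of 11.3 and 9.12 against 4.43 to 9.31 (log2 difference −0.74, SE 0.15, limma adjusted p = 0.0023), while RNA was 312 and 209.7 TPM against 0.760 to 2.88 TPM. The promoter of Cldn5, the main claudin of the barrier, differed by −0.79 on the log2 scale (limma adjusted p = 0.011). Its RNA was 874 and 593 TPM in the acute libraries and 441, 557, 739, 774, 92.1 and 118 TPM in cultures R1 to R6, so R3 and R4 lay within the acute range. The promoter of Kdr, the VEGF receptor, differed by −0.99 (limma adjusted p = 0.00029), with RNA of 176 and 172 TPM against 28.4 to 55.5 TPM. The difference at the Slc2a1 promoter was −0.44 (limma adjusted p = 0.021). These 4 promoters were lower in culture at the adjusted p but under the size of 1 that the calls required. Pecam1, the pan-EC adhesion molecule CD31, had a promoter peak in every list, with fold enrichment of 12.0 and 7.90 against 5.67 to 9.64 (log2 difference −0.57, limma adjusted p = 0.056), and 3 intronic acute-only regions of low enrichment, from 3.02 to 6.24.

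Abcb1a went against its RNA. Its promoter was low in the acute libraries, at 3.53 and 3.41, and reached 8.63, 6.78, 12.3, 12.6, 11.8 and 13.4 in culture, a rise of 1.44 on the log2 scale (SE 0.14, limma adjusted p = 1.57e-05). The gene held 3 culture-only regions with AP-1 letters in each, of which the region 59731 bases downstream of the start site had fold enrichment of 17.8, 11.9, 16.6, 14.8, 22.7 and 23.0. The region farthest downstream lay nearest to the TSS of Abcb1b. RNA of Abcb1a was 688 and 1689 TPM in the acute libraries and 24.4 to 69.8 TPM in culture. Selection with puromycin relies on P-glycoprotein, whose most abundant isoform the paper assigns to Abcb1a. The paper lists Abcb1b among the transporter transcripts raised in culture. At Slc2a1 the region 64255 bases upstream was acute-only, 3 regions in and beyond the gene were culture-only, and a shared region 32621 bases downstream of an annotated start site, nearer to the TSS of Zfp691, rose by 1.77 (SE 0.21, limma adjusted p = 7.17e-05). RNA of Slc2a1 was 1588 and 1816 TPM against 210.2 to 676 TPM.

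Among Wnt targets, acute-only regions outnumbered culture-only regions. The 11 genes of this list (Axin2, Lef1, Tcf7, Notum, Nkd1, Apcdd1, Spock2, Sp5, Tnfrsf19, Znrf3 and Rnf43) held 13 acute-only, 2 culture-only and 15 shared regions within the gene and 10 kb to either side. On the evened lists these were 35 acute-only and 0 culture-only. Of the 11 genes 6 held an acute-only region (54.5%, beside 8.39% of all 21911 protein-coding genes). Culture-only regions were found at 1 gene (9.09%, beside 23.3% of all genes). On the evened lists the shares were 90.9% beside 17.4% and 0.0% beside 15.8%. The acute-only share was not particular to Wnt targets. Among the 11 EC markers named below, 54.5% of genes held an acute-only and 45.5% a culture-only region, and 81.8% and 54.5% on the evened lists. All 11 Wnt target TSSs had a peak in both acute lists, against 8 to 11 in the cultured lists. Over all genes the share with a TSS peak was 55.6% and 55.0% in the acute lists and 53.5% to 65.0% in the cultured lists. With evened lists 11 in both acute lists stood against 7 in every culture. The TSSs of Tcf7, Notum, Spock2 and Rnf43 had no peak in any evened cultured list. The evened shares over all genes were 53.5% and 55.0% in the acute lists and 50.3% to 52.8% in the cultured lists. Yet on the full lists the Tcf7 TSS region had fold enrichment of 3.69 in R1 and 6.02 to 7.18 in R3 to R6. The median RNA difference over the 11 genes was −4.05 on the log2(TPM + 1) scale, beside 0.0 over all genes. Of the 15 shared regions at these genes limma called 0 higher and 0 lower, with 2 higher and 6 lower at an unadjusted p under 0.05. Their median log2 difference was −0.15, beside −0.10 over the 14600 shared regions at protein-coding genes, of which 7.55% were called higher and 1.64% lower.

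Axin2, a feedback inhibitor that Wnt signaling induces, had its promoter peak in all 8 lists. Fold enrichment was 11.1 and 10.8 in the acute libraries and 10.6, 7.09, 11.8, 9.82, 14.9 and 14.5 in culture, with a log2 difference of −0.15 (SE 0.15, limma adjusted p = 0.435) whose sign changed with no centring. RNA was 51.8 and 47.0 TPM against 0.0998 to 0.269 TPM. The promoter of Apcdd1, a Wnt inhibitor of brain ECs, had 17.96 and 19.4 against 9.90 to 13.5, a log2 difference of −0.90 (SE 0.22, limma adjusted p = 0.0073). Lef1 had its promoter peak in all 8 lists, an acute-only intronic region with TCF/LEF letters (4.61 and 3.20) and 2 culture-only intronic regions with AP-1 letters, of which the first had 6.68, 4.72, 8.09, 8.82, 8.15 and 9.79. Tcf7 held an acute-only region 3452 bases upstream at 2.61 and 2.72. Nkd1, an inhibitor of Dishevelled, held 4 acute-only regions and Znrf3, a ligase that removes Wnt receptors, 3. Counted on evened lists, Nkd1 and Lef1 held 6 each, Tnfrsf19 5, Tcf7 and Spock2 4 each, Axin2 3 and Znrf3 2. Sp5 alone of the list had higher RNA in culture by more than 1 on the log2 scale, at 0.0775 and 0.0794 TPM against 7.54 to 35.4 TPM.

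The BBB transport list of 18 genes held 18 acute-only, 12 culture-only and 24 shared regions, and 36 acute-only and 5 culture-only regions on the evened lists. Acute-only regions were found at 50.0% of its genes and culture-only regions at 38.9%. The TSSs of 17 of the 18 had a peak in both acute lists, against 12 to 14 in the cultured lists. The shares over all genes were 55.6% and 55.0% in the acute lists and 53.5% to 65.0% in the cultured lists. Of the 24 shared regions limma called 4 higher (16.7%) and 0 lower in culture, with 8 higher and 7 lower at an unadjusted p under 0.05. Over the shared regions at all protein-coding genes 7.55% were called higher and 1.64% lower. The study's own BBB list of 279 genes, which it chose on these acute RNA libraries and which is therefore no independent evidence, held an acute-only region at 42.3% of genes and a culture-only region at 37.6%, and 63.4% and 26.5% on the evened lists. Its list of 154 pan-EC genes, also chosen on these libraries, gave 33.8% and 48.7%, and 68.2% and 32.5% on the evened lists. Each of these shares of genes with a region was above that of all genes, and none is scaled by gene length.

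The cultured state had its own open sites at genes of the matrix, the contractile apparatus and YAP. The 19 matrix and actomyosin genes held 4 acute-only and 29 culture-only regions (13 and 18 on the evened lists), with culture-only regions at 73.7% of genes beside 23.3% of all genes (68.4% beside 15.8% on the evened lists) and a median RNA difference of 3.01. The 13 YAP and TEAD targets held 2 acute-only and 19 culture-only regions, but 15 and 11 on the evened lists, so the order turned there. Acute-only regions were at 15.4% of these genes and culture-only regions at 69.2%, beside 8.39% and 23.3% of all genes. On the evened lists the shares were 53.8% and 61.5%, beside 17.4% and 15.8%, so both classes were above all genes. Ptpn14 held 6 culture-only regions and Crim1, S100a6, Col4a1 and Col4a2 held 4 each. In the evened lists these 5 genes held 1 to 3 each, beside 0 to 5 acute-only regions.

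Ankrd1, a YAP target encoding a cardiac ankyrin repeat protein, had a culture-only promoter region with TEAD letters, at 11.8, 8.39, 14.2, 15.6, 15.6 and 16.0. Its RNA was listed at 0 in both acute libraries and was 85.8 to 273 TPM in culture. Thbs1, a matricellular protein, had a culture-only region 1078 bases upstream at 6.10 to 9.95, and RNA of 0.320 and 0.385 TPM against 478 to 1126 TPM. Cav1 held culture-only intronic regions 1835 and 7315 bases from its start site, both with AP-1 letters, and the second had 6.79, 6.404, 8.07, 8.30, 10.2 and 10.2.

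Not every gene with more RNA in culture had a stronger promoter. At Ccn1, a matricellular YAP target, the promoter fell by 1.11 on the log2 scale (SE 0.25, limma adjusted p = 0.0047), from 8.03 and 7.50 to between 3.65 and 4.58, while RNA was 27.6 and 66.3 TPM against 783 to 1858 TPM. The promoter of Tpm1, a tropomyosin of stress fibers, was among the 10 largest falls, at 16.9 and 16.3 against 4.48 to 7.17, with RNA of 84.6 and 142 TPM against 564 to 1288 TPM. Cnn2, a calponin, had a TSS peak in both acute lists and no cultured list, with RNA of 52.5 and 64.8 TPM against 141 to 379 TPM. Other TSSs or isoforms of these genes were not examined.

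EC markers kept their promoter peaks on the full lists. All 11 EC markers (Pecam1, Cdh5, Kdr, Tek, Tie1, Flt1, Eng, Erg, Emcn, Egfl7 and Robo4) had a TSS peak in each of the 8 full lists, and the list held 12 acute-only, 13 culture-only and 40 shared regions. The evened lists gave 11 TSSs with a peak in both acute lists and 7 to 10 in the cultured lists. The evened shares over all genes were 53.5% and 55.0% in the acute lists and 50.3% to 52.8% in the cultured lists. Region counts of the EC markers on the evened lists were 27 acute-only and 10 culture-only. Of the 40 shared regions 3 were called higher (7.50%) and 4 lower (10.0%) in culture. Over the shared regions at all protein-coding genes these shares were 7.55% and 1.64%. Erg, an ETS factor of ECs, held 8 culture-only regions and 1 acute-only region, and 4 and 3 on the evened lists. At Tek, which encodes the angiopoietin receptor Tie2, an intronic region with TCF/LEF letters was acute-only (8.42 and 8.26), another 13205 bases into the gene was culture-only (14.1, 12.6, 18.8, 20.0, 18.8 and 19.9), and a shared intronic region rose by 1.49 (SE 0.13, limma adjusted p = 9.37e-06). Reads from Tek sequence in the Tie2-GFP transgene, which R1 and R2 lack, cannot be told apart from those of the gene. R1 and R2 nonetheless held the culture-only and the shared regions.

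The 13 transcription factors of brain ECs held 7 acute-only and 19 culture-only regions, but 20 and 9 on the evened lists. Acute-only regions were at 38.5% of these genes and culture-only regions at 69.2%, beside 8.39% and 23.3% of all genes. On the evened lists the shares were 69.2% and 46.2%, beside 17.4% and 15.8%. Of their 35 shared regions limma called 0 higher and 5 lower (14.3%, beside 1.64% of the shared regions at all protein-coding genes). At an unadjusted limma p under 0.05, 4 were higher and 17 lower. The 10 AP-1 genes held few regions of either class (1 acute-only and 3 culture-only, all 3 at Atf3) against 26 shared regions. On the evened lists they held 3 acute-only and 2 culture-only regions, so the order turned. Acute-only and culture-only regions were each at 10.0% of these genes, beside 8.39% and 23.3% of all genes. The evened shares were 20.0% and 10.0%, beside 17.4% and 15.8%. Of the 26 shared regions limma called 0 in either direction, with 3 higher and 9 lower at an unadjusted p under 0.05. Their median RNA difference was 1.85. Klf4 held a culture-only region 9394 bases upstream with AP-1 letters, at 7.86, 7.55, 14.2, 15.4, 16.9 and 17.4, while its promoter differed by −0.61 on the log2 scale (limma adjusted p = 0.010) and its RNA was 89.7 and 142 TPM against 2.17 to 8.42 TPM. Klf2, which shares its roles under flow, had an acute-only region 5617 bases downstream at 2.90 and 3.75 and a promoter difference of −0.37 (limma adjusted p = 0.063). Nos3, the endothelial nitric oxide synthase, had a shared region upstream that rose by 1.63 (SE 0.21, limma adjusted p = 0.000104). At its own start site, where both acute lists had a peak (10.6 and 10.4), R2 and R5 had none and the other cultures had 2.85 to 5.39. The remaining lists were short: junctions held 7 acute-only and 8 culture-only regions (19 and 6 on the evened lists, where the order turned), caveolae and fenestrae 1 and 4 (2 and 3), flow and KLF genes 1 and 3 (4 and 2, so the order turned), and mitosis genes 0 and 3 (1 and 1). Acute-only regions were at 50.0%, 16.7%, 16.7% and 0.0% of the genes of these lists, beside 8.39% of all genes. Culture-only regions were at 41.7%, 50.0%, 50.0% and 37.5%, beside 23.3% of all genes.

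**Figure D5:**
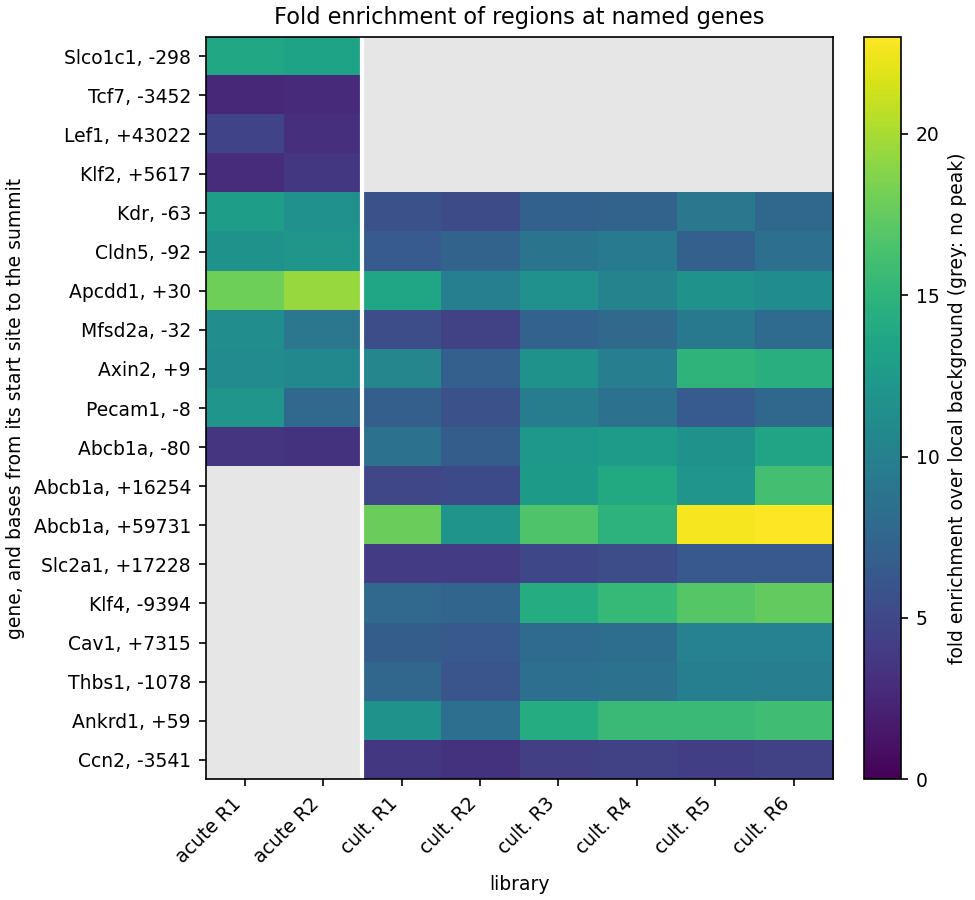
Fold enrichment over local background (colour, grey where a library had no peak) of regions at named genes (vertical axis, with the distance in bases from the start site to the summit) in each library (horizontal axis). The Slco1c1 promoter has values of 13.8 and 13.4 in the acute libraries and no peak in culture, the Abcb1a region at 59731 bases has values of 11.9 to 23.0 in culture and no acute peak, and the promoters in the middle have a peak in every library.

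Over all genes, open promoters and RNA were related in the median and loosely. Of protein-coding genes with RNA values, 161 had an acute-only region at a TSS and their median RNA difference, culture minus acute, was −0.39 on the log2(TPM + 1) scale, with 24.8% higher in culture. For 671 genes with a culture-only region at a TSS the median was 0.18 and 66.9% were higher, for 10927 genes with a shared region it was 0.42 and 64.5% were higher, and for all 21807 genes it was 0.0. Among genes with a mean of at least 1 TPM the medians were −1.21, 1.01, 0.55 and 0.57. Genes with at least 3 acute-only and no culture-only regions within 10 kb (23 genes of at least 1 TPM) had a median of −1.69. Genes with at least 3 culture-only and no acute-only regions (319 genes) had a median of 0.66, beside 0.66 for the 7119 genes with neither. Without the filter on TPM the medians were 0.17 with 62.9% higher in culture for the 439 genes with at least 3 culture-only regions, and 0.0 with 47.3% higher for the 15677 genes with neither. These counts include regions at TSSs.

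Some loci held many regions of a class. Apart from Gm20388, a read-through gene model of 4434882 bases, most acute-only regions were held by 1600014C10Rik (9), followed by Rgs3, Focad, Slco1a4 and Tcf4 among those at 6. Most culture-only regions were held by Fgfr2 (21), whose model spans 2960900 bases, Foxp1 and Elmo1 (12 each) and Dst (10). From evened lists Fgfr2 held 13 acute-only and 14 culture-only regions, Foxp1 9 and 7, Elmo1 11 and 8, and Dst 2 and 7. Long genes have more room for regions, and these counts are not scaled by length.

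Markers of other cell types differed between the RNA libraries. The summed TPM of the 6 pericyte markers was 506 to 526 in the acute libraries and 4.19 to 10.2 in culture, led by Rgs5 and Vtn. None of the 6 held an acute-only region, and Rgs5 had no TSS peak in any list. The 5 smooth muscle markers summed to 216 to 234 TPM in the acute libraries and 503 to 3075 TPM in culture. Tagln and Acta2 made up most of the cultured sum, while Myh11, the most specific of them, was at 25.0 and 19.7 TPM against 0.502 to 3.11 TPM. These markers held 3 culture-only regions. Oligodendrocyte markers summed to 30.5 to 37.8 TPM against 0.181 to 0.955 TPM, and the other sums overlapped or were led by a gene ECs also express (Gja1 for the astrocyte list, 84.6 to 467 TPM against 3.55 to 45.9 TPM). The 7 lists of other cell types held 1 acute-only region at a neuron marker and 1 at a microglia marker, and 6 in all on the evened lists. On the full lists that was 16.7% of the genes of either list, beside 8.39% of all genes. Culture-only regions numbered 7 at neuron markers, 3 each at astrocyte and pericyte markers, and 2 each at microglia and oligodendrocyte markers. They were at 66.7%, 16.7%, 33.3%, 16.7% and 16.7% of these genes, beside 23.3% of all. Evened lists gave 2, 2, 2, 1 and 0 regions. EC markers summed to 2674 to 3212 TPM and 2303 to 5004 TPM. The part of other cell types in the differences was otherwise not tested.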

How the data were processed

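ATAC-seq peak lists of 2 acute and 6 WT cultured libraries were analysed, with TPM of 8 RNA-seq libraries beside them. Per the study's methods and notes, the authors aligned ATAC-seq reads to GRCm38 (mm10) with HISAT2 2.1.0, removed duplicates with Picard and called narrow peaks per library with MACS2 2.1.2. The deposited lists give each peak's fold enrichment over local background (a ratio) and its deposited −log10 q-value, beside a score that the authors' caller made as 10 times that value and that was not used. The authors quantified RNA with Salmon 0.14.0 on GENCODE M21, and the deposited TPM values were summed per gene.

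Peaks with fold enrichment over 2 and −log10 q over 2 on the main chromosomes were kept, which is the study's filter. Overlapping peaks (1 base) of the 8 lists were merged, and regions held by at least 2 lists were kept. A region's value in a library is its highest fold enrichment. Evened lists took the 31844 peaks of highest −log10 q of each deposited list, the length of the shortest, before peaks off the main chromosomes were dropped (31646 to 31813 remained). Motif letters were searched on both strands of the 200 bases around each summit in GRCm38.p6, whose chromosome lengths hold all peaks. TSSs, exons and genes are those of protein-coding genes in GENCODE M21. Regions were placed at a TSS within 1 kb of it and at a gene within 10 kb of it. Peak lists hold no reads, so depth is unknown and no counting interval can be given.

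Single values per library were compared with two-sided exact permutation tests, and heights at shared regions with limma 3.58.1 (R 4.3.3) on log2 fold enrichment with a trended spread and Benjamini-Hochberg adjustment, checked on simulated data. RNA differences use log2(TPM + 1). The alternatives were the evened lists, other filters, normalizations and windows, a replicate block, averaged wells, each isolation method alone, no sex chromosomes and each library left out. Named genes were a hand-written list, list members with most regions, the 10 strongest regions of each class, the 10 largest height differences in each direction and the loci with most regions. The members and lists were chosen with earlier results of these data known. GFP-negative RNA libraries, stabilized RNA libraries and the 6 samples with no file among those used here were not analysed here, and results at 2 of the named genes are not reported here.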

Additional observations from a re-analysis of the deposited data

Results flagged for a closer look

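A total of 83 sets of values were searched for a library apart from the others of its group, 13 of them library summaries and 70 fold enrichments of named regions over the cultured libraries, and 4 were found. Chance gives such a library in about 1 of 20 groups. In the culture-only regions nearest to Camk2d and B3galt1, cultured R2 was the lowest, at 17.7 and 20.0. In the shared region at the Lef1 promoter, cultured R2 was again the lowest, at 4.44. In the second culture-only intronic region of Lef1, cultured R5 was the highest, at 7.28, while R6, the other well of its experiment, was at 5.11.

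The median peak width of the evened lists went opposite ways by isolation method. Every method A culture was narrower than the acute mean, by 93.0 bases in the mean (difference −93.0), and every method B culture was wider, by 138 bases in the mean. The difference between the methods was not tested, and it cannot be told apart from one between strains or, with a single method A experiment, between experiments. The evened method B peaks were drawn from lists of 84429 to 98603 peaks and the method A peaks from lists of 50272 and 33032.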

How the results depend on the processing

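The counts by presence moved with list length and with the cultures included. Acute-only regions numbered 3673 on the full lists, 7670 on the evened lists, 7424 with method A cultures alone, and 8819 and 8907 on evened lists with method A or method B alone. Culture-only regions numbered 10210, 6330 on the evened lists and 39497 with method B alone, and leaving out each library in turn gave 10220 to 20213, the highest without cultured R2. Shared regions called higher numbered 1500, 969 after quantile normalization, 3467 on log2 of −log10 q and 7090 over all 102366 regions with absent peaks set to the 1st percentile. Regions called lower numbered 302, 140 with no centring, 2324 on log2 of −log10 q, 14291 with absent peaks set, 65 on evened shared regions and 1175 with method B alone, and leaving out each library gave 259 to 721, the highest without cultured R2. With a replicate block on the replicate number the calls were 1401 higher and 218 lower, and 1 of 27 called named regions lost its call, as 1 did with no centring, 1 with method A alone and 6 with absent peaks set. Acute and cultured libraries with the same number share only that number (correlation of deviations −0.10 for R1 and 0.14 for R2).

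The width difference was −108 bases on full lists and −93.0 bases with method A alone, against 61.0. The ETS difference was −2.26 percentage points on full lists, −0.33 away from TSSs and −0.219 to 0.270 with a library left out. The SOX difference was 0.270 on full lists, 0.269 with method B alone, 0.0876 in 100-base windows and −0.137 to 0.144 with a library left out. The CTCF difference was 0.0651 on full lists. Overlap between acute and cultured lists was 47.2% when at least 50% of both peaks had to be shared. The median RNA difference at acute-only promoters was −1.21 for genes of at least 1 TPM and −0.10 with evened classes, and at culture-only promoters it was 0.64 with log2(TPM + 0.1) and 1.01 for genes of at least 1 TPM. Among named regions the sign changed at Axin2 with no centring (0.028), at the Lef1 promoter (−0.35) with absent peaks set, at the first Cav1 promoter on −log10 q (0.14), and at the Tek promoter on −log10 q (−0.96), with absent peaks set (−0.61) and with an acute library left out (−0.023 to 0.36). The cause of these changes was not tested. The directions for AP-1, TEAD, TCF/LEF, KLF, SP, ZIC and FOX were the same in every setting run. Region counts of gene lists on evened lists were added after the data had been seen.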
